A study of Mus musculus with 6 samples.

Results

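The genes described here encode alpha subunits of heterotrimeric G proteins. They are Gnas, Gnai1, Gnai2, Gnai3, Gnaq, Gna11, Gna12, Gna13, Gnao1 and Gnal, chosen by symbol, and make up 10 of the 33696 genes in the count tables. The cells came from Achilles tendons of Gli1-CreERT2; Ai9 reporter mice, in which tamoxifen switches on a red fluorescent reporter in cells that use the Gli1 promoter at that time and in their descendants. All 24 mice carried both alleles and received tamoxifen, with equal numbers of the sexes according to the labels, and there were 8 mice per group: without injury, 7 days post injury (dpi) or 21 dpi, the injury being tenotomy, the surgical cutting of the tendon. Cells were sorted by the reporter into Gli1+ and Gli1- fractions and sequenced as 6 libraries, 1 per fraction and time, with 10x Genomics 3′ version 3 chemistry. How many mice entered each library is not given in the sources used here and nothing tied a cell to its mouse, so each condition is 1 library. No test between conditions was therefore run, and every 95% interval below covers counting error only.

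A heterotrimeric G protein relays the signal of a receptor in the cell membrane. When the receptor is activated, the alpha subunit exchanges GDP for GTP, separates from the beta and gamma subunits and acts on an effector until it hydrolyses its GTP, a step that RGS proteins speed up. Gs alpha, from Gnas, and Golf alpha, from Gnal, stimulate adenylyl cyclase and raise cyclic AMP. The Gi and Go subunits, from Gnai1, Gnai2, Gnai3 and Gnao1, inhibit it. The Gq family, from Gnaq and Gna11, activates phospholipase C beta, and the products of Gna12 and Gna13 form a class of their own that acts on the cytoskeleton. In connective tissue, Gs alpha is known as a brake on bone formation outside the skeleton: inactivating GNAS mutations cause progressive osseous heteroplasia in people. Tenotomy of the Achilles tendon is a model of heterotopic ossification after injury, which forms through cartilage, unlike the bone of progressive osseous heteroplasia.

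Gnas is an imprinted gene with several starts, so its place in the genome bears on what its count can mean. In the GENCODE vM21 annotation of GRCm38 it lies on the plus strand at chr2:174284320-174346744 and has 24 transcripts, 16 of them protein coding. Of the coding transcripts, 10 end within 300 bases of the last end, although their starts spread over 45.8 kb. Counts of 3′ ends cannot tell the products of these starts apart, and each Gnas value below is a sum over them. The starts themselves differ in sequence. The 250 bases before the starts of the Nesp transcript (chr2:174284070-174284319), of the exon 1A transcript (chr2:174327499-174327748) and of the Gs alpha transcript (chr2:174329756-174330005) are shown, 5′ to 3′ on the plus strand of GRCm38.p6 as given by RefSeq, because they are among the alternatives that the count adds up; the start of the XL alpha s transcript is not shown. Capitals mark CGTCA, which reads TGACG on the other strand and is the core of the site bound by CREB, the transcription factor activated by cyclic AMP.
Nesp start: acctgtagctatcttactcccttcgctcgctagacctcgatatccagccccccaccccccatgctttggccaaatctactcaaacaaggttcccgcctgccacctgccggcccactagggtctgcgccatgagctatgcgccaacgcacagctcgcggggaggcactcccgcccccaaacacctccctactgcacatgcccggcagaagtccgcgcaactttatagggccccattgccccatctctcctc
Exon 1A start: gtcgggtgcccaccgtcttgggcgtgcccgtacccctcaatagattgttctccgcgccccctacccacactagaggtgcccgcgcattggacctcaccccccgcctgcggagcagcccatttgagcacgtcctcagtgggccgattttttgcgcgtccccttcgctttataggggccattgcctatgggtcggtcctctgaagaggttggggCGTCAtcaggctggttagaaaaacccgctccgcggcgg
Gs alpha start: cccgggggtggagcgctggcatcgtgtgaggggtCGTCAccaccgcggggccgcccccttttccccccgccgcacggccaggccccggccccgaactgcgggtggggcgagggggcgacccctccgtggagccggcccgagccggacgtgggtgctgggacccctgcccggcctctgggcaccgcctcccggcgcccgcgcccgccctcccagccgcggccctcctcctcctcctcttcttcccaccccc
The GC content of these windows was 61.6%, 63.2% and 80%, and they held 14, 21 and 29 CG pairs. The median GC content of the 32851 promoter windows of that length was 52.4%. The letters TGACG on either strand occurred in 17.8% of all promoter windows. They were in the exon 1A and the Gs alpha windows, 1 time each, and not in the Nesp window. Of the 10 genes, 8 had promoters in the RefSeq table, and of these Gnas alone had windows with the letters. A gene with more windows has more chances of a match, and Gnas had 4 windows. The window not shown falls between those of exon 1A and Gs alpha in order of start, and its letters are not described here. A match is a run of letters and was not tested as a site.

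The filtered libraries held 7057, 9250 and 9780 cells in Gli1+ and 10882, 9931 and 10867 cells in Gli1- (uninjured, 7 dpi and 21 dpi, the order used throughout), with 53564928 to 107887022 unique molecular identifiers (UMIs) per library. Median depth per cell ran from 4297 UMIs in Gli1- uninjured to 9775 UMIs in Gli1- 7 dpi. Pairs of libraries shared 15 to 32 barcodes among kept cells. Gli1 itself was at 6.55, 2.17 and 4.10 CPM (UMIs of a gene per 1000000 UMIs) in Gli1+, beside 7.64, 2.57 and 4.03 CPM in Gli1-, so its transcript level did not separate the fractions, which are named here as labelled. Immune-like cells, defined by Ptprc, were 3798 of the 7057 cells of Gli1+ uninjured and at most 24 in any other library. Cells with Y-linked UMIs and no Xist UMI were 15%, 70.9% and 0.112% of Gli1+ and 59.6%, 70.5% and 0.0552% of Gli1-. Cells with Xist and no Y-linked UMI were 68.7%, 0.0108% and 92.7% of Gli1+ and 0%, 0.0101% and 90.5% of Gli1-. The 7 dpi libraries were thus almost wholly male and the 21 dpi libraries almost wholly female by these transcripts, and sex and time cannot be told apart between them.

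Gnas was the most abundant of the 10 genes in every library. Levels are in CPM of UMIs, which count molecules by their 3′ ends and are not scaled by gene length. Whether intronic reads were counted is not given in the sources used here, and it could change the order of genes with long introns, such as Gnaq (a span of 254.6 kb) and Gnao1 (159.4 kb). Averaged over the 6 libraries, Gnas stood at 1236 CPM and Gnai2 at 447 CPM. Gnaq, Gnai3, Gna13 and Gna11 followed within a narrow span of 136, 119, 106 and 90.5 CPM, and their ranges over libraries overlapped. Gna12 at 30.2 CPM, Gnai1 at 22.9 CPM and Gnao1 at 13.7 CPM were scarcer. Gnal was at 2.13 CPM. Gnas supplied 44.7%, 62.3% and 62.3% of all UMIs of the 10 genes in Gli1+, against 42.3%, 63.0% and 58.4% in Gli1-, so both uninjured libraries lay below all 4 injured libraries. The summed level of the 10 genes was 2073, 2126 and 2258 CPM in Gli1+, against 1911, 2493 and 2356 CPM in Gli1-.

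**Figure D1:**
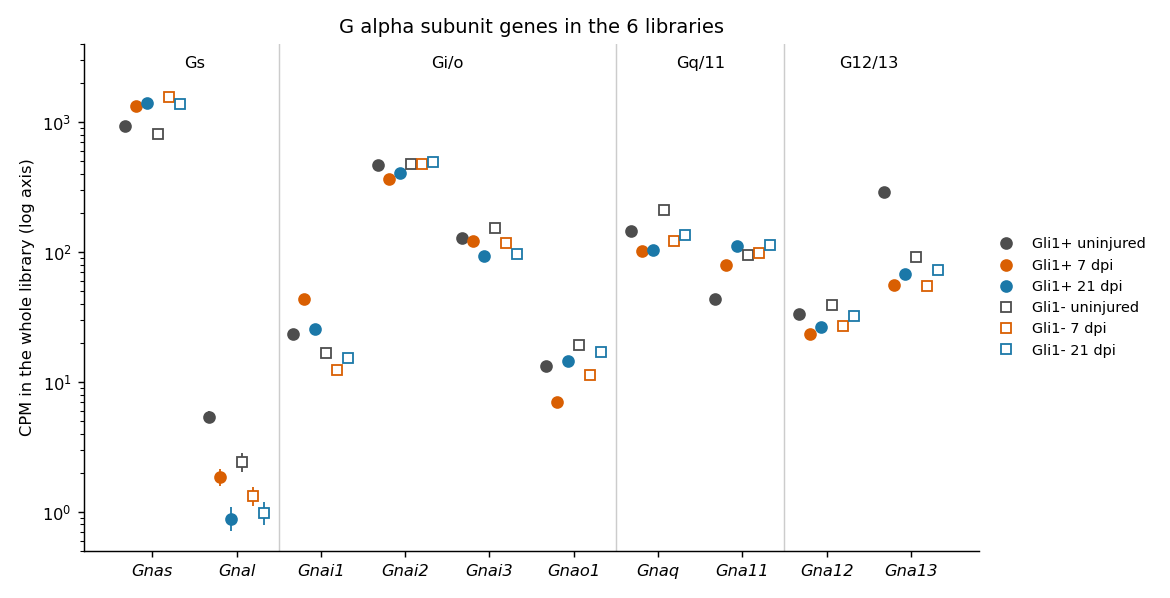
Level of each of the 10 G alpha genes in the 6 whole libraries, in CPM on a log axis; each point is 1 library with its 95% counting interval, and colour and marker give sort and time. Gnas is highest in every library, from 808 to 1571 CPM, and Gnal lowest, from 0.886 to 5.35 CPM.

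The subunits of the Gs class were examined first. Gnas was at 928 CPM (95% interval 920 to 935) in Gli1+ uninjured, 1325 CPM (1317 to 1332) in Gli1+ 7 dpi and 1407 CPM (1399 to 1414) in Gli1+ 21 dpi. It was at 808 CPM (801 to 816), 1571 CPM (1564 to 1579) and 1377 CPM (1369 to 1384) in the Gli1- libraries. Both uninjured libraries were below every injured one, by log2 ratios of 0.51 and 0.60 in Gli1+, against 0.96 and 0.77 in Gli1-. How many of all genes part the uninjured from the injured libraries in this way was not counted, here or for the genes below. The makeup of the libraries differed. With the shares of the 3 types found in all libraries (mesenchymal-like, endothelial-like and mural-like) held fixed at 84.5%, 8.85% and 6.68%, the log2 ratio in Gli1+ was 0.047 at 7 dpi and -0.0073 at 21 dpi. In Gli1- 21 dpi it stayed positive, as given in the last section. These shares leave out tenocyte-like cells, which were 10.6% of Gli1+ uninjured and 31.5% of Gli1+ 21 dpi. The immune-like cells, which were numerous in Gli1+ uninjured only, held Gnas at 540 CPM. The part of the makeup in the Gnas ratios was not tested.

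Cell types were assigned to clusters from fixed marker genes, and a cluster was called mesenchymal-like only where no other type passed. Mesenchymal-like cells, defined by Pdgfra, numbered 1680, 6224 and 4660 in Gli1+ and 5588, 7647 and 4948 in Gli1-. In these cells Gnas was at 1433 CPM (1415 to 1452), 1604 CPM (1595 to 1614) and 1503 CPM (1492 to 1514) in Gli1+. It was at 748 CPM (739 to 757), 1633 CPM (1625 to 1641) and 1431 CPM (1420 to 1442) in Gli1-. Of the 6 libraries, 5 lay between 1431 and 1633 CPM, and Gli1- uninjured stood apart below them. Over uninjured, the log2 ratio in Gli1+ at 7 dpi was 0.16 (0.14 to 0.18), and at 21 dpi it was 0.07 (0.05 to 0.09). In Gli1- it was 1.13 (1.11 to 1.15) and 0.94 (0.92 to 0.96). Whether the ratios differ between the sorts was not tested.

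The sorts were then set against each other within a time. The log2 ratio of Gli1+ over Gli1- in mesenchymal-like cells was 0.94 (0.91 to 0.96) before injury and then -0.03 and 0.07 at 7 and 21 dpi. The uninjured difference was not limited to these cells. It was 0.70 (0.61 to 0.79) in tenocyte-like cells, 0.65 (0.59 to 0.71) in endothelial-like cells and 0.48 (0.39 to 0.57) in mural-like cells. Gnas was higher in Gli1+ in all 9 clusters that had at least 50 cells in both uninjured libraries, by 0.45 to 1.13 on the log2 scale. Over mesenchymal-like clusters of that size, the 3 clusters at 7 dpi ran from -0.43 to 0.09, and Gnas was higher in Gli1+ in 6 of 9 clusters at 21 dpi, with ratios up to 0.41. The 3 clusters at 7 dpi, 2, 5 and 15, held only 141, 75 and 634 of the 6224 mesenchymal-like cells of Gli1+. Clusters 7 and 8 held 2711 and 2475 of them, beside 19 and 4 cells of Gli1- 7 dpi, and could not be compared. Other values moved with the same 2 libraries. Malat1, a nuclear RNA, was at 26254 CPM in mesenchymal-like cells of Gli1+ uninjured and at 16698 CPM in those of Gli1- uninjured. Cntn5, a neural adhesion gene, was at 1.82 CPM in the former and 490 CPM in the latter. Median depth per mesenchymal-like cell was 8607 and 5791.5 UMIs. In the mesenchymal-like cells of the former and the latter, the mural markers summed to 39.1 and 244 CPM, the endothelial ones to 27.5 and 108 CPM and the erythroid ones to 10.9 and 145 CPM. The sex of the cells differed too, since cells with Xist and no Y-linked UMI were 68.7% of all cells in the former and 0% in the latter. Cntn5 also differed between times within a sort. In epidermal-like cells of Gli1+ it was at 0.889, 178 and 0.449 CPM. In Schwann-like cells of Gli1- it was at 1125, 651 and 0 CPM. The part of all these values in the Gnas difference, or in the ratios over uninjured, was not tested.

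Gnas was also counted per cell at equal depth, where Gli1- uninjured again lay below the other 5 libraries. With every mesenchymal-like cell thinned to 2000 UMIs, 88.4%, 88.2% and 87.5% of the Gli1+ cells held at least 1 Gnas UMI, as did 73.6%, 87.3% and 86.5% of the Gli1- cells. Before thinning these shares were 98.8%, 97.6% and 98.1% in Gli1+, against 93.9%, 98.6% and 96.6% in Gli1-. The mean number of Gnas UMIs per thinned cell was 2.88, 3.45 and 3.16 in Gli1+ and 1.5, 3.3 and 3.04 in Gli1-. Between 30 and 205 shallower cells per library were left out. Epidermal-like cells, which had the least Gnas of any type, held a Gnas UMI in 46.8% to 54.7% of thinned cells.

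The sex of the cells could be examined inside 1 library. Gli1+ uninjured held mesenchymal-like cells of both kinds, and Gnas was at 1431 CPM in 1077 cells with Xist and at 1455 CPM in 387 cells with Y-linked UMIs, a log2 difference of -0.02 (-0.07 to 0.02). In cells of like sex, chosen after the data were seen, the log2 ratio of Gnas over uninjured was 0.12 for Y-linked cells of Gli1+ 7 dpi, 0.08 for Xist cells of Gli1+ 21 dpi and 1.14 for Y-linked cells of Gli1- 7 dpi. No such value could be had for Gli1- 21 dpi, since Gli1- uninjured held no cell with Xist alone. Among the other genes, the Xist cells of that library had more Gna13 (log2 0.35, 0.16 to 0.55) and less Gnaq (-0.23, -0.36 to -0.11). They also had less Gna12 (-0.28, -0.54 to -0.01) and less Gnai1 (-0.70, -1.24 to -0.15).

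**Figure D2:**
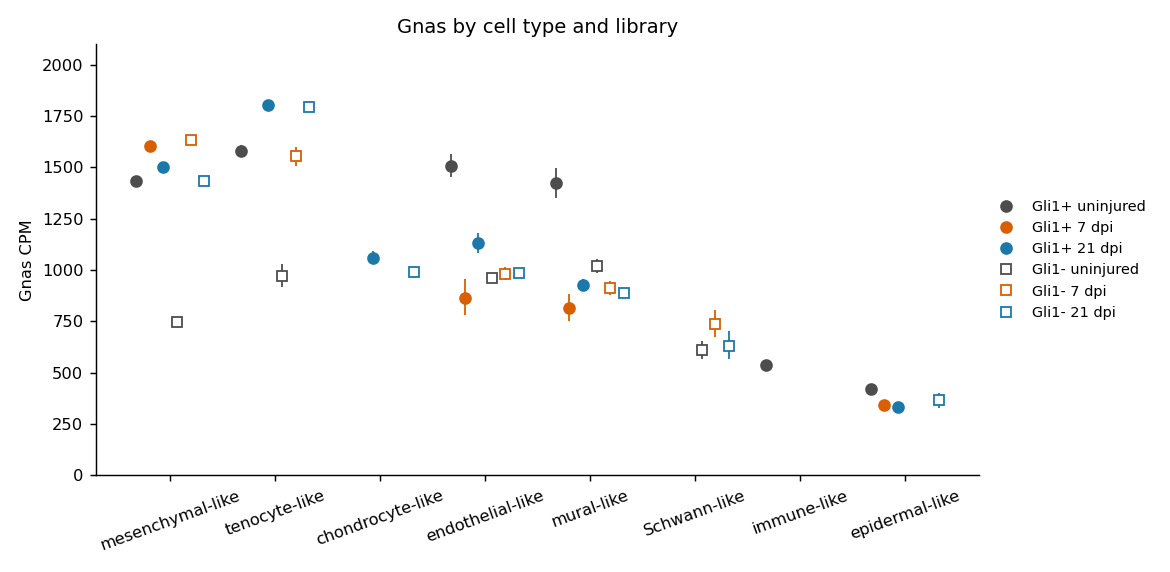
Gnas level in each marker-defined cell type except skeletal muscle-like cells, in CPM. Each point is 1 library with at least 50 cells of that type, with its 95% counting interval, and colour and marker give sort and time. Tenocyte-like and mesenchymal-like cells reach the highest levels and epidermal-like cells lie lowest, at 335 to 420 CPM, while Gli1- uninjured sits apart below the other libraries in mesenchymal-like cells.

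Across cell types the mean of Gnas over libraries was highest in tenocyte-like cells (1540 CPM, range 972 to 1802) and mesenchymal-like cells (1392 CPM, 748 to 1633), whose ranges overlapped. The mesenchymal-like range also met that of endothelial-like cells (866 to 1508 CPM). Its lowest value, in Gli1- uninjured, lay below every endothelial-like and every mural-like value (815 to 1422 CPM). In Gli1+ uninjured, endothelial-like cells stood above mesenchymal-like ones, so this order of types did not hold in uninjured tendon. Endothelial-like cells at 1072 CPM, skeletal muscle-like cells at 1052 CPM, chondrocyte-like cells at 1025 CPM and mural-like cells at 997 CPM formed a middle group by their means, in which neighbours also overlapped. Schwann-like cells at 659 CPM (610 to 737), immune-like cells at 540 CPM and epidermal-like cells at 365 CPM (335 to 420) were below that group and did not overlap one another. The chondrocyte-like cluster was also led by the bone genes Bglap and Ibsp, so its name covers both kinds of marker. The skeletal muscle-like cells, valued in Gli1+ 7 dpi only, held the tenocyte markers Thbs4, Fmod and Tnmd at 4484, 2410 and 740 CPM. Beside these stood the muscle markers Acta1 and Ckm at 238 and 77.2 CPM, so that name does not part them from tenocyte-like cells.

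The course of Gnas after injury differed between types. In endothelial-like cells of Gli1+ it was at 1508 CPM, 866 CPM and 1132 CPM, with log2 ratios of -0.80 and -0.41 over uninjured, where only 72 cells stood behind the 7 dpi value. In mural-like cells of Gli1+ it was at 1422 CPM, 815 CPM and 929 CPM, with log2 ratios of -0.80 and -0.61. Markers of other types moved in the same cells. In mural-like cells of Gli1+ the epidermal markers summed to 30.9, 4501 and 194 CPM, the endothelial ones to 922, 365 and 121 CPM and the mesenchymal ones to 982, 9452 and 10606 CPM. In endothelial-like cells of Gli1+ the epidermal markers summed to 30.5, 2921 and 239 CPM and the mesenchymal ones to 441, 5269 and 1764 CPM. Their part in the Gnas values was not tested. The clusters that held these cells differed with time. Of the endothelial-like cells of Gli1+, 308 of 356 were in cluster 1 when uninjured, while 51 of 72 at 7 dpi and 169 of 258 at 21 dpi were in cluster 14. Of the mural-like cells of Gli1+, 75 of 138 were in cluster 17 when uninjured, 79 of 191 in cluster 17 and as many in cluster 11 at 7 dpi, and 495 of 593 in cluster 11 at 21 dpi. Inside a cluster with at least 50 cells at both times, the ratio of Gnas was -0.34 in cluster 1 at 21 dpi and -0.93 in cluster 17 at 7 dpi. In the same types of Gli1- the ratios were small, at 0.03 and 0.04 in endothelial-like cells and -0.16 and -0.20 in mural-like cells. Tenocyte-like cells of Gli1- went the other way, from 972 CPM to 1554 CPM and 1792 CPM, with log2 ratios of 0.68 and 0.88. Those of Gli1+ were at 1580 CPM uninjured and 1802 CPM at 21 dpi, a log2 ratio of 0.19. At 21 dpi most of these cells were in another cluster than before injury, while 66.9% of those of Gli1- 7 dpi were still in cluster 10. Inside cluster 10, which held most of the uninjured ones, the ratio of Gnas was -0.28 in Gli1+ 21 dpi, -0.05 in Gli1- 7 dpi (-0.16 to 0.06) and 0.25 in Gli1- 21 dpi.

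In injured tendon Gnas varied more between mesenchymal-like clusters than the level over all such cells varied between libraries. Over clusters of at least 50 cells it ran from 1198 to 1581 CPM in Gli1+ uninjured, from 682 to 2491 CPM in Gli1+ 7 dpi and from 731 to 2360 CPM in Gli1+ 21 dpi. In Gli1- it ran from 548 to 1029 CPM, from 765 to 1969 CPM and from 867 to 2347 CPM. The widest ranges were thus in injured tendon, although the lowest values of Gli1+ there belonged to small clusters. These were cluster 35, with 96 cells at 7 dpi, and cluster 33, with 69 cells at 21 dpi. The highest value at Gli1+ 7 dpi belonged to cluster 8, with 2475 cells, whose leading genes were Klk1, Pgr, Pthlh and Ifi27l2a. At 21 dpi it belonged in both sorts to cluster 3, with 1653 cells in Gli1+ and 1630 cells in Gli1-, led by St6galnac5, Fgf10, Slit2, Gdf10 and Sfrp4. At Gli1- 7 dpi it was cluster 5, led by Cxcl13, Aldh1a2 and Pgr, at 1969 CPM in 2803 cells. Each of the 3 clusters made up 32.9% to 39.8% of the mesenchymal-like cells of its library.

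Low levels were found in injured tendon too. Cluster 12, led by Saa3, Grem1 and Mmp13, had 900 CPM in Gli1+ 21 dpi and 867 CPM in Gli1- 21 dpi. Cluster 15, of cycling cells led by Hmmr and Birc5, was at 971 CPM over all libraries. Of its 1405 cells, 634 were in Gli1+ 7 dpi and 554 in Gli1- 7 dpi. The largest clusters at 7 dpi lay between. Cluster 7, led by Prss35, Crabp1 and Tnn, was 43.6% of the mesenchymal-like cells of Gli1+ 7 dpi and had 1345 CPM. Cluster 2, led by H19, Ptn, Mest and Tnn, was 44.6% of those of Gli1- 7 dpi and had 1683 CPM. The 10 genes themselves took no part in forming the clusters.

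**Figure D3:**
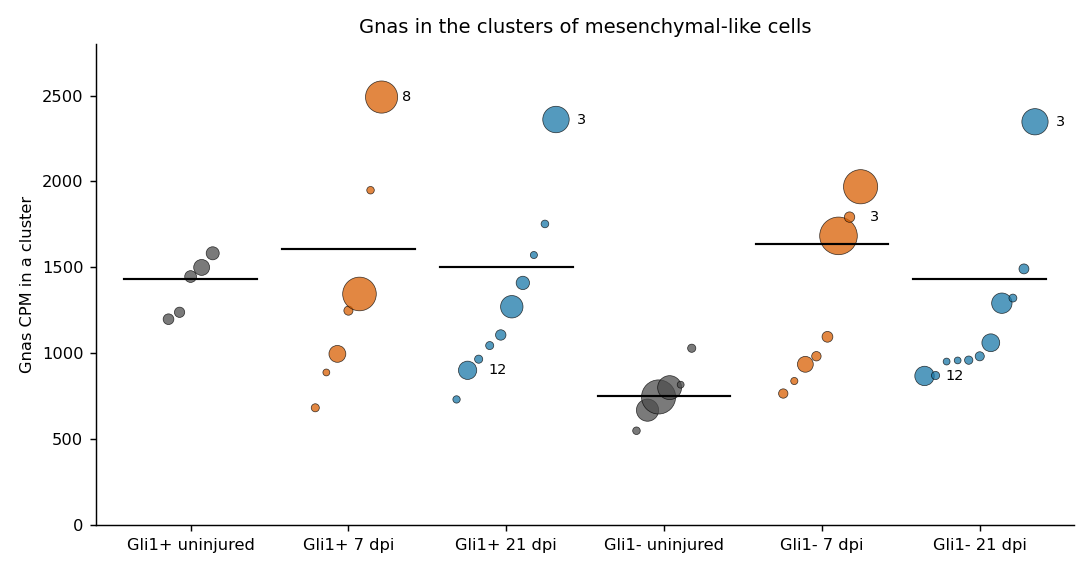
Gnas level, in CPM, in each mesenchymal-like cluster with at least 50 cells, by library; dot area is proportional to the number of cells, the black line is the level over all mesenchymal-like cells of the library, and clusters 3, 8 and 12 are numbered. Clusters 8 and 3 reach 2491, 2360 and 2347 CPM in injured libraries, whereas no cluster of Gli1- uninjured exceeds 1029 CPM.

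Where the same cluster held at least 50 cells before and after injury, Gnas could be compared inside it. In Gli1- it was higher at 7 dpi, with an interval above 0, in 3 of 4 such clusters (log2 0.17 to 1.27 over the 4), and at 21 dpi in 4 of 4 (0.38 to 0.87). In Gli1+ 21 dpi the 2 shared clusters both had less Gnas than uninjured (-0.71 and -0.17), and Gli1+ 7 dpi shared no mesenchymal-like cluster of that size with uninjured. In Gli1- the shared clusters, 4, 5, 6 and 13, held 62, 2803, 155 and 151 of 7647 mesenchymal-like cells at 7 dpi. At 21 dpi they held 140, 178, 715 and 102 of 4948, and cluster 5 had only 53 uninjured cells. In Gli1+ 21 dpi clusters 6 and 33 held 374 and 69 of 4660. The clusters of a comparison share 1 pair of libraries and are not independent, here or for the genes below. The Gli1+ 21 dpi ratio for all mesenchymal-like cells also depended on the clustering. With coarser clusters (Leiden resolution 0.5), 75.5% of the cells of cluster 3 were counted as tenocyte-like, and the log2 ratio of Gnas in the remaining mesenchymal-like cells was -0.37 in Gli1+ 21 dpi and 0.49 in Gli1- 21 dpi.

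Gnal, the Gs-like subunit best known from olfactory and striatal neurons, was near the detection limit. Its 342, 168 and 87 UMIs in Gli1+ gave 5.35, 1.85 and 0.886 CPM, and its 129, 143 and 96 UMIs in Gli1- gave 2.41, 1.33 and 0.978 CPM. Of the 342 UMIs in Gli1+ uninjured, 281 were in immune-like cells, where it stood at 8.66 CPM (7.67 to 9.73). Its mean was under 5 CPM, and it was left out of the counts of changed genes.

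The inhibitory class comprised 3 Gi genes and Gnao1. Gnai2 was the most abundant of them in every library, at 464, 367 and 405 CPM in Gli1+, against 473, 477 and 496 CPM in Gli1-. Its level differed more by cell type than by time. Endothelial-like cells held 1115 CPM (1030 to 1188 over 6 libraries), above every library of every other type, followed by mural-like cells at 604 CPM. In endothelial-like cells Gnai2 exceeded Gnas in the mean, where Gnas was at 1072 CPM. Epidermal-like cells were lowest, at 201 CPM (175 to 231). In mesenchymal-like cells Gnai2 was at 395, 404 and 374 CPM in Gli1+, against 311, 446 and 369 CPM in Gli1-, with Gli1- uninjured again the lowest library. Its log2 ratios over uninjured there were 0.03 and -0.08 in Gli1+, against 0.52 and 0.25 in Gli1-, all inside the limit of 0.58, the fold threshold of the study's methods.

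Gnai3 was the most even of the genes over cell types. Its type means lay between 91.2 CPM in tenocyte-like cells and 152 CPM in endothelial-like cells, and most neighbours in that order overlapped. In whole libraries it was at 127, 121 and 93.8 CPM in Gli1+, against 154, 118 and 97.3 CPM in Gli1-, so the 21 dpi library was the lowest of each sort. In mesenchymal-like cells the log2 ratio over uninjured was 0.02 and -0.34 in Gli1+, against -0.29 and -0.64 in Gli1-. Inside the 4 clusters shared in Gli1- the interval of the Gnai3 ratio held 0 in 4 at 7 dpi (-0.39 to 0.21) and in 2 at 21 dpi (-0.57 to 0.0072). It held 0 in both clusters shared by Gli1+ uninjured and 21 dpi (-0.07 and 0.31).

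Gnai1 was scarce in mesenchymal-like cells and abundant in several others. Means were 108 CPM in epidermal-like cells (86.8 to 150), 100 CPM in Schwann-like cells (81.5 to 136) and 94.3 CPM in the skeletal muscle-like cells, which also held tenocyte markers. Tenocyte-like cells had 66.2 CPM and mural-like cells 59.7 CPM. Endothelial-like cells had 15.6 CPM, mesenchymal-like cells 9.15 CPM and immune-like cells 2.19 CPM. In whole libraries it was at 23.6, 43.9 and 25.6 CPM in Gli1+, against 16.8, 12.5 and 15.4 CPM in Gli1-. The highest of these, Gli1+ 7 dpi, was the library with the most epidermal-like cells, 1825. The 6 epidermal markers summed to 865, 7866 and 2350 CPM in Gli1+, against 15.1, 146 and 182 CPM in Gli1-. Their part in the whole-library level of Gnai1 was not tested. Within mesenchymal-like cells Gnai1 was at 9.09, 13.4 and 10.9 CPM in Gli1+, against 5.97, 7.84 and 7.79 CPM in Gli1-, beside a summed epidermal marker level of 2126 CPM in Gli1+ 7 dpi and 14.7 to 198 CPM in the other libraries.

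On the log2 scale, and where both libraries held UMIs of the gene, the largest change over uninjured within a cell type was that of Gnai1 in tenocyte-like cells, defined by Scx. In Gli1+ it was at 101 CPM (93.7 to 109) in 748 cells of uninjured tendon and at 17.2 CPM (15.8 to 18.8) in 3085 cells at 21 dpi. In Gli1- it was at 116 CPM (98.1 to 137) in 204 cells, 84.1 CPM (73.7 to 95.5) in 335 cells at 7 dpi and 12.3 CPM (10.9 to 13.8) in 2241 cells at 21 dpi. Both 21 dpi libraries lay below every other library with such cells. The log2 ratios at 21 dpi were -2.55 (-2.72 to -2.39) in Gli1+ and -3.25 (-3.54 to -2.95) in Gli1-. The Gli1+ 7 dpi library held 17 tenocyte-like cells and gave no value. The 788 skeletal muscle-like cells of that library, named from markers such as Acta1, also held Scx at 467 CPM and Tnmd at 739.9 CPM, and their Scx level was above that of the tenocyte-like cells of each library with at least 50 of them.

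This difference lay mostly between 2 clusters of tenocyte-like cells. Cluster 10, led by Col22a1, Chodl and Chad, was 93.9% of the tenocyte-like cells of Gli1+ uninjured and 99.0% of those of Gli1- uninjured. Cluster 0, led by Cilp2, Tnmd, Kera, Thbs4 and Fmod, was 83.7% and 90.6% of those at 21 dpi. Inside cluster 10, Gnai1 was at 108 CPM uninjured and 79.5 CPM at 21 dpi in Gli1+, and at 118, 128 and 84.9 CPM in Gli1-. Inside cluster 0 it was at 11.5 CPM in Gli1+ 21 dpi, 18.6 CPM in the 111 cells of Gli1- 7 dpi and 8.14 CPM in Gli1- 21 dpi. Within cluster 10 the log2 ratio at 21 dpi was therefore -0.44 in Gli1+ and -0.47 in Gli1-. The tendon transcription factor Mkx had the same split, at 127 to 301 CPM in cluster 10 and 25.5 to 47.7 CPM in cluster 0, whereas Tnmd, a tenocyte membrane protein, was at 500 to 635 CPM in cluster 0 and 689 to 1615 CPM in cluster 10. Gnas went the other way, at 920 to 1460 CPM in cluster 10 and 1829 to 2500 CPM in cluster 0.

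Gnao1 was highest in tenocyte-like cells (mean 32.8 CPM), mural-like cells (25.8 CPM) and mesenchymal-like cells (16.2 CPM), and its means were 4.02 CPM or less in endothelial-like, epidermal-like and immune-like cells. In tenocyte-like cells it was at 51.9 CPM uninjured and 20.3 CPM at 21 dpi in Gli1+, and at 48.8, 22.4 and 20.7 CPM in Gli1-. All 3 injured values lay below both uninjured ones, with log2 ratios of -1.36 in Gli1+ and -1.13 and -1.24 in Gli1-. Gnao1 was also lower inside cluster 10, by log2 ratios of -1.07 in Gli1+ 21 dpi and of -1.10 and -1.21 in Gli1-. Mesenchymal-like cells held 23.0, 7.75 and 14.5 CPM in Gli1+, against 20.7, 11.1 and 19.97 CPM in Gli1-, lowest at 7 dpi in each sort. Inside the 4 clusters shared by Gli1- uninjured and 7 dpi its ratio ran from -0.55 to 0.89, with an interval that held 0 in 4 of 4. In mural-like cells it was lower in injured tendon as well, with log2 ratios of -1.87 and -1.63 in Gli1+, against -1.13 and -1.0 in Gli1-, although inside mural-like cluster 17 of Gli1+ it was 0.07 at 7 dpi and its interval held 0.

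**Figure D4:**
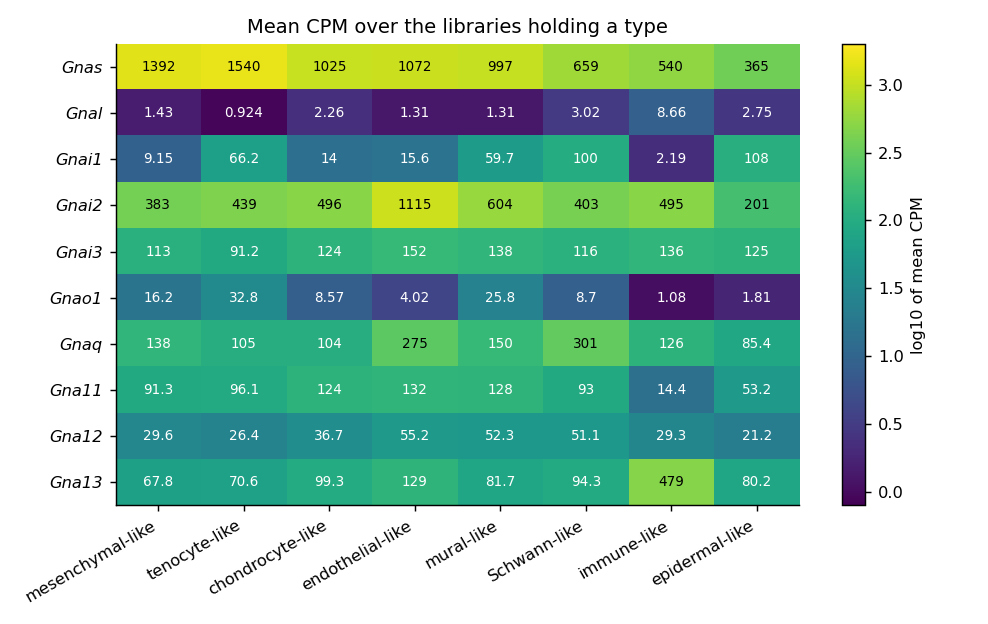
Mean level of each of the 10 G alpha genes in each marker-defined cell type except skeletal muscle-like cells. Means are over the libraries with at least 50 cells of a type, with colour on a log scale of CPM and the value printed in each field. Gnas leads in most types, Gnai2 in endothelial-like cells, Gna13 is highest in immune-like cells at 479 CPM and Gnai1 in epidermal-like cells at 108 CPM.

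The Gq class was lower in injured than in uninjured mesenchymal-like cells for Gnaq and slightly higher for Gna11. Gnaq was at 177, 108 and 117 CPM in Gli1+, against 185, 115 and 126 CPM in Gli1-. The 2 uninjured libraries did not overlap the 4 injured ones, and log2 ratios were -0.71 and -0.60 in Gli1+, against -0.68 and -0.55 in Gli1-. In cells with Xist alone the Gli1+ 21 dpi ratio was -0.55. Inside the 4 mesenchymal-like clusters that Gli1- uninjured shared with Gli1- 7 dpi and with 21 dpi, however, the interval of the Gnaq ratio held 0 in 4 of 4 at each time (-0.10 to 0.17 and -0.18 to 0.04). In the 2 clusters shared by Gli1+ uninjured and 21 dpi Gnaq was lower in both (-1.02 and -0.50). Over types, Gnaq was highest in Schwann-like cells at 301 CPM and endothelial-like cells at 275 CPM, whose ranges overlapped, and lowest in epidermal-like cells at 85.4 CPM.

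Gna11 was at 74.9, 89.1 and 108 CPM in mesenchymal-like cells of Gli1+, against 76.6, 96.0 and 102 CPM in those of Gli1-. Both sorts had the lowest value in uninjured tendon and the highest at 21 dpi, with log2 ratios of 0.25 and 0.53 in Gli1+, against 0.33 and 0.42 in Gli1-, all inside the limit of 0.58. Inside the 4 clusters shared in Gli1- the interval of the Gna11 ratio held 0 in 3 at 7 dpi (-0.20 to 0.43) and in 4 at 21 dpi (-0.0046 to 0.27). In the 2 clusters shared by Gli1+ uninjured and 21 dpi the ratios were 0.30 and 0.71, and 1 interval held 0. In tenocyte-like cells it passed the limit at 21 dpi, from 66.8 to 129 CPM in Gli1+ (log2 0.95) and from 76.5 to 120 CPM in Gli1- (0.65). Inside cluster 10 Gna11 was at 66.9 CPM uninjured and 111 CPM at 21 dpi in Gli1+, and at 77.5, 87.1 and 97.6 CPM in Gli1-. In cluster 0, which held most tenocyte-like cells at 21 dpi, Gna11 was then at 130 CPM in Gli1+ and 122 CPM in Gli1-. In whole libraries it was at 43.8, 80.1 and 112 CPM in Gli1+, against 95.5, 97.9 and 114 CPM in Gli1-, with Gli1+ uninjured lowest. The immune-like cells of that library held Gna11 at 14.4 CPM, the lowest of any type.

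Gna13 in whole libraries was at 290, 55.8 and 68.2 CPM in Gli1+, against 91.8, 54.5 and 73.2 CPM in Gli1-. Gli1+ uninjured stood far above the rest. Immune-like cells of that library held Gna13 at 479 CPM (471 to 486), against at most 157 CPM in any library of any other type. The 6 immune markers summed to 2068 CPM in that library and 35.9 to 74.1 CPM in the others. In mesenchymal-like cells, with immune-like cells set aside, Gna13 was at 89.4, 51.8 and 68.0 CPM in Gli1+, against 86.7, 49.3 and 61.5 CPM in Gli1-. As in whole libraries, each sort was highest in uninjured tendon and lowest at 7 dpi, with log2 ratios of -0.79 and -0.39 in Gli1+, against -0.81 and -0.50 in Gli1-. In cells with Y-linked UMIs alone the ratio was -0.53 in Gli1+ 7 dpi and -0.84 in Gli1- 7 dpi. Inside the 2 mesenchymal-like clusters shared by Gli1+ uninjured and 21 dpi the ratio was instead positive (0.50, and 0.62 with an interval that held 0). In the 4 clusters shared in Gli1- it ran from -0.45 to -0.29 at 7 dpi, and its interval held 0 in 3 of them. At 21 dpi it ran from -0.50 to 0.14 and the interval held 0 in 2 of 4. In endothelial-like cells the log2 ratios were positive, at 0.62 and 0.41 in Gli1+, against 0.51 and 0.49 in Gli1-. Cluster 1, which held 308 of the 356 uninjured cells of Gli1+ and 2458 of the 2691 of Gli1-, had Gna13 at 94.4 CPM over all libraries, and cluster 14, which held 169 of 258 and 833 of 1673 at 21 dpi, had 141 CPM. Inside cluster 1 of Gli1- the ratio of Gna13 was 0.43 at 7 dpi and -0.18 at 21 dpi, and inside cluster 14 it was 0.07 and 0.04.

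Gna12 was at 33.1, 23.5 and 26.6 CPM in whole Gli1+ libraries, against 39.3, 26.8 and 32.0 CPM in Gli1-. It was again highest in uninjured and lowest in 7 dpi tendon of both sorts. In mesenchymal-like cells the log2 ratios were -0.63 and -0.49 in Gli1+, against -0.36 and -0.24 in Gli1-. Inside the 4 clusters shared in Gli1- the interval of the Gna12 ratio held 0 in 3 at each time (-0.70 to 0.56 and -1.18 to 0.59). In the 2 clusters shared by Gli1+ uninjured and 21 dpi the ratios were -0.75 and -0.59, and 1 interval held 0. Endothelial-like (55.2 CPM), mural-like (52.3 CPM) and Schwann-like cells (51.1 CPM) held the most, and their ranges overlapped.

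**Figure D5:**
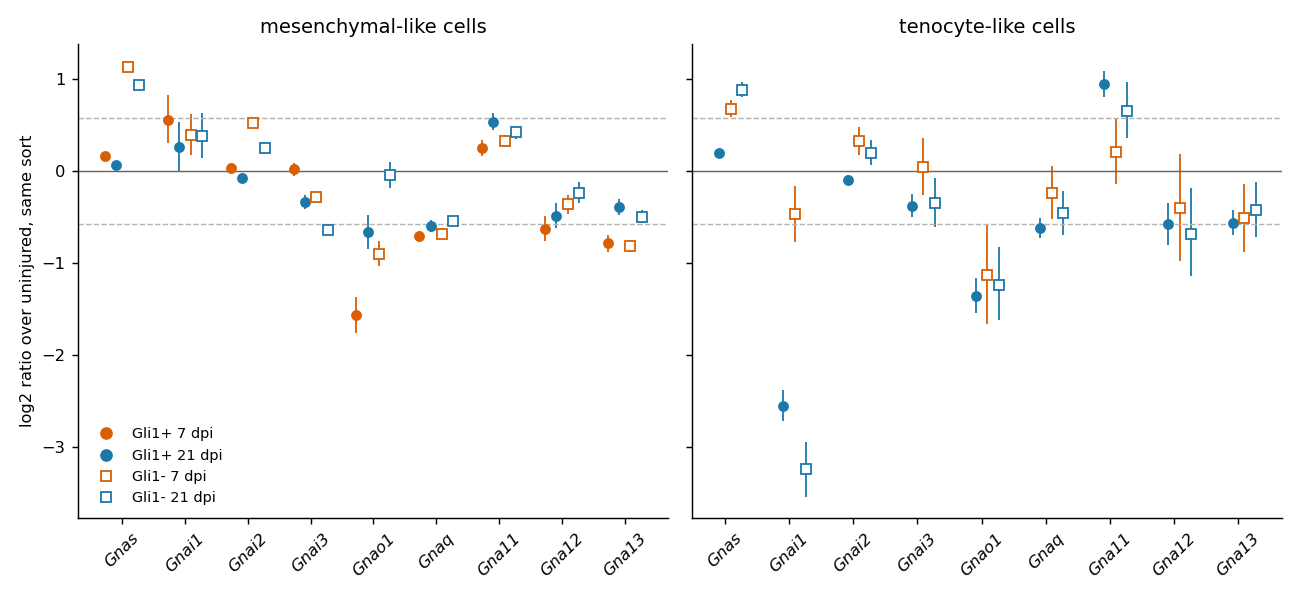
Log2 ratio over the uninjured library of the same sort for each of the 10 G alpha genes except Gnal, in mesenchymal-like and tenocyte-like cells. Values are shown where both libraries held at least 50 such cells. Points carry 95% counting intervals, colour and marker give sort and time, and dashed lines mark the limit of 0.58 in each direction. Gnai1 in tenocyte-like cells at 21 dpi lies farthest below 0, at -2.55 and -3.25.

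A gene was counted as raised or lowered where its log2 ratio over uninjured was at least 0.58 in size and its mean over the 6 libraries at least 5 CPM, which 9 of the 10 genes met. This is a size, not a test. In whole libraries of Gli1+ 7 dpi 2 of the 9 were raised (Gnai1 and Gna11) and 2 lowered (Gna13 and Gnao1), where 23.2% of all 11301 genes were raised and 31.0% lowered. In Gli1+ 21 dpi 2 were raised (Gnas and Gna11) and 1 lowered (Gna13), where 20.4% and 30.6% of all genes were. In Gli1- 7 dpi 1 was raised (Gnas) and 3 lowered (Gnaq, Gna13 and Gnao1), beside 19.2% and 28.0%. In Gli1- 21 dpi 1 was raised (Gnas) and 2 lowered (Gnai3 and Gnaq), beside 17.0% and 23.8%. These shares are near those of all genes and set the 9 genes apart in no comparison.

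In mesenchymal-like cells 10670 genes met the limit on the mean. None of the 9 was raised and 4 were lowered (Gnaq, Gna12, Gna13 and Gnao1) in Gli1+ 7 dpi, where 21.0% of all genes were raised and 28.5% lowered. None was raised and 2 were lowered (Gnaq and Gnao1) in Gli1+ 21 dpi, beside 14.4% and 25.7%. In Gli1- 7 dpi Gnas alone was raised and 3 were lowered (Gnaq, Gna13 and Gnao1), beside 21.8% and 22.8%. In Gli1- 21 dpi Gnas was raised and Gnai3 lowered, beside 17.8% and 21.2%. Scaling by the trimmed mean of M values (TMM) in place of total UMIs changed these counts. With TMM 1 gene was raised (Gnai1) and 1 lowered (Gnao1) in Gli1+ 7 dpi, and 2 were raised (Gnai1 and Gna11) and 0 lowered in Gli1+ 21 dpi. In Gli1- 7 dpi Gnai2 joined Gnas among the raised genes and the 3 lowered ones remained, and in Gli1- 21 dpi Gnas was raised and 0 were lowered. Of all genes, TMM gave 30.9%, 29.7%, 25.6% and 23.2% raised and 18.7%, 11.2%, 19% and 15.6% lowered (Gli1+ 7 and 21 dpi, then Gli1- 7 and 21 dpi). In cells of like sex Gna13 in Gli1+ 7 dpi and Gnaq in Gli1+ 21 dpi were inside the limit. Gnai1, raised in Gli1+ 7 dpi with TMM, was at 12.3 CPM in uninjured Gli1+ cells with Y-linked UMIs alone (9.03 to 16.3). In such cells at 7 dpi it was at 13.4 CPM (12.4 to 14.4). The median log2 ratio of the 9 genes was 0.02, -0.34, -0.29 and -0.05 in these comparisons, and that of all genes -0.12, -0.18, -0.03 and -0.07.

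TMM shifted every log2 ratio up, by 0.29, 0.39, 0.21 and 0.24 in whole libraries and by 0.28, 0.39, 0.10 and 0.15 in mesenchymal-like cells (Gli1+ 7 and 21 dpi, then Gli1- 7 and 21 dpi). The sign then turned in whole libraries for Gnai3 in Gli1+ 7 dpi, for Gnai2 and Gna12 in Gli1+ 21 dpi and for Gnai1 and Gnao1 in Gli1- 21 dpi. In mesenchymal-like cells it turned for Gnai2 and Gnai3 in Gli1+ 21 dpi and for Gnao1 in Gli1- 21 dpi. The signs of Gnas, Gnaq, Gna11 and Gna13 held under both scalings in all 8 comparisons, although Gna13 in mesenchymal-like cells of Gli1+ 21 dpi was at -0.0057 with TMM.

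The partners of the alpha subunits were counted in mesenchymal-like cells from fixed lists. Of all genes, 21.0%, 14.4%, 21.8% and 17.8% were raised and 28.5%, 25.7%, 22.8% and 21.2% lowered there (Gli1+ 7 and 21 dpi, then Gli1- 7 and 21 dpi, the order of all counts that follow), and each list's counts are to be read beside these shares. With TMM 30.9%, 29.7%, 25.6% and 23.2% of all genes were raised and 18.7%, 11.2%, 19% and 15.6% lowered. Of 5 G beta genes 4 met the limit on the mean, and 0, 1, 0 and 2 of them were raised and 1, 1, 0 and 1 lowered (with TMM 1, 2, 2 and 2 raised and 0, 1, 0 and 0 lowered). Gnb2, the most abundant, was at 192, 283 and 336 CPM in Gli1+, against 212, 310 and 321 CPM in Gli1-, above uninjured in all 4 injured libraries, with log2 ratios of 0.56 and 0.80 in Gli1+, against 0.55 and 0.60 in Gli1-. Of 12 G gamma genes 8 met it, and 2, 2, 3 and 3 of them were raised and 2, 1, 2 and 0 lowered (with TMM 5, 5, 3 and 4 raised and 2, 0, 2 and 0 lowered). Gng5, the most abundant of these, was at 236, 353 and 306 CPM in Gli1+, against 272, 378 and 309 CPM in Gli1-. Gng2 was at 10.8 CPM in each uninjured library and at 27.3 to 34.2 CPM in the injured ones, with log2 ratios of 1.34 to 1.66. Gngt2 was lowered in 3 of the 4 comparisons (-2.66, -0.96 and -1.16) and stood at -0.06 in Gli1- 21 dpi. The other G alpha genes were scarce: of 6 only Gna14, a Gq family member, met the limit, at 12.9, 5.51 and 13.7 CPM in Gli1+, against 5.88, 3.85 and 12.6 CPM in Gli1-.

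RGS genes, whose products speed up GTP hydrolysis by Gi and Gq subunits, included larger ratios than any of the alpha subunits in these cells. Of 20 listed genes 11 met the limit, and 5, 5, 6 and 6 of them were raised and 3, 2, 4 and 3 lowered (with TMM 8, 6, 6 and 6 raised and 3, 2, 3 and 3 lowered), with medians of 0.47, 0.53, 0.73 and 0.65, where the medians of all genes were -0.12, -0.18, -0.03 and -0.07. These counts include Rgs5, the gene that defines mural-like cells, which was raised in both Gli1+ comparisons and lowered in both Gli1- ones. The 7 mural markers summed to 39.1, 769.6 and 219.9 CPM in the mesenchymal-like cells of Gli1+ and to 244, 599.7 and 229 CPM in those of Gli1-, and their part in the RGS values was not tested. Rgs3, the most abundant, was at 16.5, 154 and 96.0 CPM in Gli1+, against 22.6, 151 and 89.1 CPM in Gli1-, so that it was lowest before injury and highest at 7 dpi in both sorts. Rgs4 was at 1.75, 37.2 and 32.0 CPM in Gli1+, against 4.06, 36.0 and 26.3 CPM in Gli1-, with log2 ratios of 4.4 and 4.19, then 3.15 and 2.69. Rgs2 was highest at 21 dpi, with 31.5, 43.8 and 102 CPM in Gli1+, against 6.17, 34.0 and 105 CPM in Gli1-. Rgs6 was lowered in all 4 comparisons, from 41.9 to 3.16 and 4.97 CPM in Gli1+ and from 32.0 to 4.77 and 7.79 CPM in Gli1-. Rgs19 was raised in all 4, by log2 ratios of 1.09 to 1.74. Rgs10 was raised at 7 dpi, by 1.32 in Gli1+ and 0.73 in Gli1-, with 0.53 and 0.02 at 21 dpi, although with TMM it was also past the limit in Gli1+ 21 dpi (0.92).

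Of 8 chaperones and regulators of G alpha, 6 met the limit, with 0, 0, 1 and 1 raised and 3, 4, 2 and 2 lowered (with TMM 0, 1, 1 and 1 raised and 1, 1, 2 and 1 lowered). Gpsm3, a guanine nucleotide dissociation inhibitor for Gi subunits, was lowered in all 4 comparisons (-0.89, -1.29, -1.07 and -1.19). Ccdc88a, the most abundant, was at 133, 83.5 and 85.2 CPM in Gli1+, against 92.4, 81.5 and 79.2 CPM in Gli1-. Of 7 effectors of the Gq and G12/13 classes 6 met it, with 1 raised in each comparison and 2, 4, 3 and 3 lowered (with TMM 1, 1, 3 and 2 lowered). The raised gene was Plcb1, which encodes a phospholipase C beta, at 91.1, 148 and 215 CPM in Gli1+, against 57.4, 171 and 276 CPM in Gli1-. Its paralog Plcb4 was at 77.7, 95 and 46.2 CPM in Gli1+, against 176, 102 and 59.0 CPM in Gli1-, lowest at 21 dpi in both sorts. The G12/13 effectors Arhgef12 (334, 208 and 213 CPM, then 409, 214 and 210 CPM) and Arhgef11 (log2 ratios of -1.39 and -0.95, then -1.16 and -0.73) were lowered in all 4 comparisons. With TMM Arhgef12 was inside the limit in both Gli1+ comparisons (-0.40 and -0.26), and Arhgef11 at 21 dpi in Gli1+ (-0.56) and, barely, in Gli1- (-0.58).

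Over the 34 pairs of library and type with at least 50 cells, the genes whose log2(CPM + 1) ran most like that of Gnas were Sqstm1 (Pearson r 0.87), Cdkn1c (0.85), Cped1 (0.84), Arf4 (0.82) and Syne1 (0.82), among 3813 genes with a mean of at least 50 CPM. Cdkn1c, a cell cycle inhibitor, is imprinted like Gnas. Of the other alpha subunits, Gnao1 (0.61), Gna11 (0.54) and Gnai2 (0.48) were nearest and Gnai1 (-0.41) farthest. The pairs share libraries and cell types and are not independent, so these values are a description.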

How the data were processed

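Single-cell libraries were made from sorted Achilles tendon cells with the 10x Genomics 3′ version 3 kit. The authors deposited raw UMI counts per gene and cell as filtered matrices. The submitters' processing notes name Cell Ranger 3.1.0, STAR and mm10, whereas the file headers name Cell Ranger 9.0.0, and whether intronic reads were counted is not given in the sources used here. Cells with at least 200 genes and 1000 UMIs, at most 5% mitochondrial and 5% hemoglobin UMIs and a log10 genes per UMI of at least 0.7 were kept. The cells with the highest Scrublet doublet scores (scanpy 1.11.5) were then removed, in a number fixed beforehand at 0.8% per 1000 cells. Cells were clustered on 2000 variable genes, without the 10 genes, their partner lists and the type markers, with 30 components, 20 neighbours and Leiden resolution 1.0 (leidenalg 0.10.2). Clusters were named from fixed markers, of which at least 3 had to be raised for every type but the mesenchymal-like one. A cluster was called mesenchymal-like where no other type passed and at least 3 markers of its list, Pdgfra among them, stood at 100 CPM or more. None of these had to be raised. UMIs were summed per library and type, and no value was given for fewer than 50 cells. CPM carry exact Poisson intervals and log2 ratios exact binomial intervals (scipy 1.17.1, level 95%), which cover counting error only. edgeR 4.0.16 (R 4.3.3) supplied the TMM factors, used for scaling alone. Counts were also simulated as Poisson draws with no spread between mice or libraries, which checks the calculation only. In these, all of 200 genes changed by 1 on the log2 scale passed the limit of 0.58 in each of 4 comparisons. The intervals held the true ratio for 95.1% to 95.4% of unchanged and 93% to 97.5% of changed genes. Partner genes were named if they had a mean of at least 10 CPM in mesenchymal-like cells and passed the limit in 1 direction in both sorts at 7 or at 21 dpi, at most 12 by size, together with the most abundant gene of each list and the 5 genes most like Gnas. The 10 genes, the lists and the markers were chosen with earlier results of these data known. Alternatives were TMM scaling, no cell filters, doublets kept, cells weighted equally, technical genes left out of the total, type shares fixed, Leiden resolution 0.5, each sort clustered on its own, a marker gate without clusters, a limit of 1 and no filter on low genes. Cells of like sex and TMM scaling of the partner lists were alternatives chosen after seeing the data. Levels of the antisense gene Gnasas1 were 0.131 to 4.87 CPM in whole libraries.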

Additional observations from a re-analysis of the deposited data

Results flagged for a closer look

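In a few comparisons the log2 ratio over uninjured had opposite signs in the Gli1+ and the Gli1- libraries. The difference between the sorts was not tested in any of them, since each value rests on 1 pair of libraries. In whole libraries Gnai1 was at 0.89 in Gli1+ and -0.43 in Gli1- at 7 dpi, and at 0.12 and -0.13 at 21 dpi. Epidermal-like cells, which hold much Gnai1, were 1825 of the cells of Gli1+ 7 dpi and 31 of those of Gli1- 7 dpi, and their part was not tested. Gnai2 in whole libraries at 21 dpi was at -0.20 in Gli1+ and 0.067 in Gli1-, and Gnao1 at 0.14 and -0.17. In mesenchymal-like cells Gnai2 at 21 dpi was at -0.078 in Gli1+ and 0.25 in Gli1-. Under TMM scaling the negative value of each 21 dpi pair turned positive, so that both sorts then had the same sign.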

How the results depend on the processing

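No fit of sort with time as a block was run, since no label ties both sorts of a time to the same mice and the uninjured sorts differed in the sex of their cells. In whole libraries the Gnas log2 ratio (Gli1+ 7 and 21 dpi, then Gli1- 7 and 21 dpi) was 0.80, 1.0, 1.17 and 1.01 with TMM, 0.45, 0.56, 0.92 and 0.72 with no cell filters, and 0.49, 0.56, 1.01 and 0.82 without technical genes. It was 0.50, 0.65 and 0.87 in the first 3 with cells weighted equally, 0.94 in Gli1- 7 dpi with doublets kept, and 0.047, -0.0073 and 0.79 in Gli1+ 7 dpi, Gli1+ 21 dpi and Gli1- 21 dpi with type shares fixed. In mesenchymal-like cells it was 0.45, 0.46, 1.23 and 1.08 with TMM and 0.25, 0.14, 1.15 and 1.01 with cells weighted equally. Without technical genes it was 0.19 in Gli1+ 7 dpi and 1.17 and 0.98 in Gli1-. In Gli1+ 21 dpi it was 0.10 with doublets kept, 0.16 with each sort clustered on its own, 0.24 with a marker gate and -0.37 at Leiden resolution 0.5. In Gli1- it was 1.23 and 1.03 with the gate and 0.49 at 21 dpi at resolution 0.5, where 75.5% of cluster 3 was counted as tenocyte-like. Y-linked cells alone gave 0.12 in Gli1+ 7 dpi.

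Among ratios whose counting interval lay to 1 side of 0, the sign of other genes turned in whole libraries with TMM for Gnai3 in Gli1+ 7 dpi (0.21), Gnai2 (0.20) and Gna12 (0.079) in Gli1+ 21 dpi and Gnai1 (0.11) and Gnao1 (0.069) in Gli1- 21 dpi. With type shares fixed it turned for Gnai1 in Gli1- (0.15 at 7 and 0.15 at 21 dpi), Gnai3 in Gli1+ 7 dpi (0.0088) and Gnao1 in Gli1+ 21 dpi (-0.79), and with cells weighted equally for Gnai2 in Gli1- 21 dpi (-0.095). In mesenchymal-like cells TMM turned Gnai2 (0.31) and Gnai3 (0.047) in Gli1+ 21 dpi, and Gnao1 in Gli1- 21 dpi, whose interval held 0, went from -0.049 to 0.097. Beyond Gnas, 316 of 486 recomputed ratios moved by less than their counting interval, 158 moved by more, and 12 whose interval lay to 1 side of 0 turned. The cause of these moves was not tested.

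With a limit of 1 in place of 0.58, whole libraries had 0, 1, 0 and 0 genes raised and 1, 1, 0 and 0 lowered. Of all genes 12.6%, 9.68%, 10.5% and 8.99% were then raised and 18.6%, 17.1%, 14.8% and 11.4% lowered. Mesenchymal-like cells had 1, 0, 0 and 0 lowered, beside 15.2%, 10.5%, 11.5% and 9.98% of all genes. They had 0 raised in Gli1- 21 dpi, beside 9.08%. With TMM, 0 were lowered in whole Gli1- libraries at 7 and 21 dpi, where 20.2% and 15.2% of all genes were. In mesenchymal-like cells TMM gave 1, 2 and 2 raised in Gli1+ 7 dpi, Gli1+ 21 dpi and Gli1- 7 dpi, beside 30.9%, 29.7% and 25.6% of all genes. It gave 1, 0 and 0 lowered in Gli1+ 7 dpi, Gli1+ 21 dpi and Gli1- 21 dpi, beside 18.7%, 11.2% and 15.6%. With no filter on low genes, Gnal joined the lowered genes in all but mesenchymal-like Gli1+ 7 dpi. They were then 3, 2, 4 and 3 in whole libraries, where 39.3%, 44.3%, 35% and 33.3% of all genes were lowered. In mesenchymal-like cells they were 4, 3, 4 and 2, beside 32.3%, 34.9%, 28.7% and 29% of all genes. Depth limits Gnal most, with 87 to 342 UMIs per library.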
